A study of Saccharomyces cerevisiae with 15 samples.

Results

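Iron uptake in budding yeast (Saccharomyces cerevisiae) was followed through 10 genes: the cell wall mannoprotein genes FIT1, FIT2 and FIT3, the siderophore transporter genes ARN1, ARN2 and SIT1, the oxidase and permease genes FET3 and FTR1, the regulator gene AFT1 and the vacuolar importer gene CCC1. They were taken by symbol from an RNA sequencing table of 5980 genes, where all 10 were found and all 10 passed the filter on low counts. The table covers 5 strains of the S288C background with 3 libraries each, 15 in all. Every strain is labelled with the alleles his3Δ1, leu2Δ0, met15Δ0 and ura3Δ0 and as overexpressing the genome-editing nuclease spCas9-NG. BY47419 is the original strain with the nuclease alone. C0 is the original β-carotene strain and overexpresses, besides the nuclease, the reductase HMG1 of the mevalonate pathway and CrtE, CrtYB and Crt I, enzymes of carotenoid synthesis. Strains C3-06 and C5-63 were taken during the evolution experiment and C7-143 is its final strain, all with the same labelled genes as C0. The labels do not say whether one evolved strain descends from another. All were grown in YPD, a rich medium with glucose at 20 g/L, at 30 °C to an optical density near 3. The labels name neither the mutations of the evolved strains nor separate cultures for the 3 libraries of a strain, so the p-values measure only the spread between these libraries, which may be technical.

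The libraries held 16144808 to 21586409 reads on genes. URA3 and MET17, the current name of MET15, had at most 1 read per strain, and HMG1 had 36051 to 102139 reads in the β-carotene strains, against 3686 in BY47419. LEU2 had 0 reads in C3-06 and 8491 to 17634 in each of the other strains, although all are labelled leu2Δ0. Whether these reads came from the LEU2 locus or from an introduced copy of the gene was not tested. HIS3 had 1608 to 8807 reads per strain, and his3Δ1 is a partial deletion. The genotypes are therefore given as labelled. Genes of cytosolic ribosomal proteins, 132 in number, held 2.095% to 5.55% of the reads of the evolved libraries, against 0.349% to 0.476% in BY47419 and C0. A list of 22 general stress genes held 0.884% to 5.09% in the evolved libraries, against 8.59% to 10.35% in BY47419 and C0. These shares moved with the strains in the same comparisons as the iron genes, and their part in the results below was not tested. In bulk cultures, a lower level in all cells and a smaller share of cells with the transcript cannot be told apart.

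Yeast takes up iron by a reductive route and by a siderophore route. In the reductive route, surface reductases free ferrous iron, the multicopper oxidase Fet3 oxidises it and the permease Ftr1, which works in a complex with Fet3, carries it into the cell. In the siderophore route, the Fit mannoproteins hold iron bound to siderophores, which are iron-chelating compounds of fungi and bacteria, in the cell wall, and the Arn family of transporters takes the chelates in. The transcription factor Aft1 and its relative Aft2 switch these genes on when iron is scarce. When iron is plentiful, monothiol glutaredoxins and the Fra proteins pass an iron-sulfur cluster to Aft1, which then leaves the DNA. Ccc1 moves iron into the vacuole for storage, and its gene is known to be turned on by Yap5 when iron is high.

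The DNA in front of the genes is shown first, because genes of 1 route that carry the same Aft1-type motif went opposite ways in the evolved strains. The motif TGCACCC, a core of the sites that Aft1 is known to bind, was searched on both strands of the 500 bases before each start codon, in the R64 reference genome from RefSeq. It lay before 8 of the 10 genes, all but AFT1 and CCC1, and before 138 of the 5978 genes with a full window (2.31%). It did not overlap the other motif searched, TTACTAA, a site of Yap5, in any printed window. TTACTAA lay before 704 of the 5978 genes (11.8%), and among the 10 it was found before CCC1 alone, at 398 and 303 bases before the start codon. The windows below run 5′ to 3′ on the strand of the gene, with matches of either motif on either strand in capitals. FET3 and FTR1 are shown as partners of 1 complex, FIT1, FIT3 and FIT2 as members of 1 family, SIT1 as the gene that fell most and CCC1 as the importer without the Aft1-type motif.
FET3, chrXIII:388522-388821, plus strand, 300 to 1 bases before the start codon: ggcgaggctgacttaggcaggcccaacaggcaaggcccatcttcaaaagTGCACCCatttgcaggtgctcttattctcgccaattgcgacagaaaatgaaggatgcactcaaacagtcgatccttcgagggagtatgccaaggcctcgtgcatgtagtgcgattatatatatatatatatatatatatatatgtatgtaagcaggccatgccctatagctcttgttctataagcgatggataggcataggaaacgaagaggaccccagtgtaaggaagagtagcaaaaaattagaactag
FTR1, chrV:461741-462040, minus strand, 300 to 1 bases before the start codon: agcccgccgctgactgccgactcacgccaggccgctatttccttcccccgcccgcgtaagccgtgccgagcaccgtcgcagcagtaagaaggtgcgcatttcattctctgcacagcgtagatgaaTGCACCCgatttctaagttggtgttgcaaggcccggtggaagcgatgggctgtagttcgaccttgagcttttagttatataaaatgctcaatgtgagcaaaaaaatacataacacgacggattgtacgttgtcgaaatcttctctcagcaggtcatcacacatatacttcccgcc
FIT1, chrIV:1504901-1505200, minus strand, 300 to 1 bases before the start codon: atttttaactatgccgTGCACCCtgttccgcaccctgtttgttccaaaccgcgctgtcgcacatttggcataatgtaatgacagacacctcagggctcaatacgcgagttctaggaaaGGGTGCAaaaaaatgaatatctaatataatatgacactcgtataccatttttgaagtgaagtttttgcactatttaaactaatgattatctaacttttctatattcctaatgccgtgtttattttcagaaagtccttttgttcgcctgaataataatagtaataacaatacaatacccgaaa
FIT3, chrXV:1061056-1061355, minus strand, 300 to 1 bases before the start codon: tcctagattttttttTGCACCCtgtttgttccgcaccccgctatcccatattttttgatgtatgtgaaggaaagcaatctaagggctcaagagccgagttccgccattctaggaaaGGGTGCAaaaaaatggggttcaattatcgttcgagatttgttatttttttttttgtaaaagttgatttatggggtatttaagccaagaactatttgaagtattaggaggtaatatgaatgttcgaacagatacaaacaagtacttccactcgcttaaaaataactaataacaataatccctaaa
FIT2, chrXV:1059231-1059530, plus strand, 300 to 1 bases before the start codon: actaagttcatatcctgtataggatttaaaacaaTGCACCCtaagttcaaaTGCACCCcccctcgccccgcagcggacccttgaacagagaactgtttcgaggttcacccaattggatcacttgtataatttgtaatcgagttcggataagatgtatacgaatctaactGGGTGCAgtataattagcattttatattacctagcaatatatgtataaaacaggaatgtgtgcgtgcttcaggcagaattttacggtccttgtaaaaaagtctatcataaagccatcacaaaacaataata
SIT1, chrV:27357-27656, plus strand, 300 to 1 bases before the start codon: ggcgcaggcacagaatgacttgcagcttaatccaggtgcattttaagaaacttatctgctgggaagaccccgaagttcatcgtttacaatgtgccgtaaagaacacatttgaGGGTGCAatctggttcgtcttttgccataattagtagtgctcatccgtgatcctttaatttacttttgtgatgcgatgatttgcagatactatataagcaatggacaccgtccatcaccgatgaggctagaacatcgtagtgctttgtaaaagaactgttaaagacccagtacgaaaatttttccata
CCC1, chrXII:576375-576674, plus strand, 450 to 151 bases before the start codon: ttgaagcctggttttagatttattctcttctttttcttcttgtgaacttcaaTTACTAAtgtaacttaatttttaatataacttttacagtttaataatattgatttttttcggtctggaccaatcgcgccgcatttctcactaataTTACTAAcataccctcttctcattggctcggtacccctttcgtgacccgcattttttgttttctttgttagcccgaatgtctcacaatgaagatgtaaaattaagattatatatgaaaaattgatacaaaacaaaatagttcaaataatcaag
FET3 had 1 match at 251 bases before its start codon, and FTR1 had 2, at 365 (outside the printed window) and 175. In FIT1 the 2 matches lay at 284 and 182 bases on opposite strands, and in FIT3 at 285 and 184 bases in the same arrangement. The printed windows of FIT1 and FIT3 matched at 68.8% of 279 aligned bases, those of FIT1 and FIT2 at 67.2% of 250 and those of FIT2 and FIT3 at 58.3% of 259, against 61% of 251 for the windows of FET3 and FTR1. FIT2 had 4 matches, at 331 (outside the printed window), 266, 249 and 131 bases. ARN1, ARN2 and SIT1 had 1 each, at 260, 447 and 188 bases. A match is a description of the letters and not a measured site of binding.

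**Figure D1:**
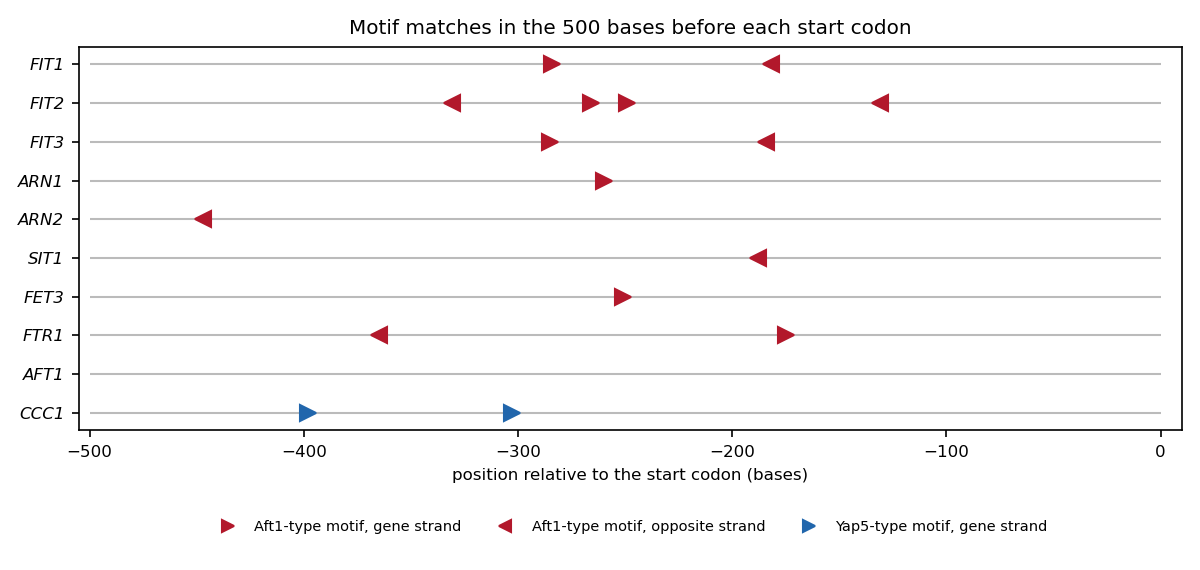
Matches of TGCACCC (red) and TTACTAA (blue) before the 10 genes, by distance from the start codon in bases, with triangles pointing right for the strand of the gene and left for the opposite strand. FIT1 and FIT3 carry 2 matches each at nearly the same distances, FIT2 carries 4, and CCC1 carries the blue motif alone.

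The cell wall mannoprotein genes split in the evolved strains: FIT2 and FIT3 fell and FIT1 rose. All 3 encode mannoproteins anchored in the cell wall by a glycosylphosphatidylinositol (GPI) anchor and involved in retaining siderophore iron there. Levels below are CPM, that is counts relative to library size, scaled with TMM factors (trimmed mean of M values) computed over all genes. FIT1 (YDR534C, chromosome IV, 1503314 to 1504900, minus strand) had 5.12, 6.56 and 5.40 CPM in BY47419, 6.60, 7.95 and 6.50 in C0, 17.7, 21.1 and 16.4 in C3-06, 17.4, 15.1 and 14.4 in C5-63, and 17.0, 14.6 and 15.2 in C7-143. It was low in BY47419 and C0, and every evolved library lay above every library of those strains. Its log2 fold change in C7-143 against C0 was 1.15 ± 0.14 (SE; adjusted p = 6.36e-07, edgeR quasi-likelihood test with Benjamini-Hochberg adjustment over all genes tested), a 2.22-fold higher level. FIT2 (YOR382W, chromosome XV, 1059531 to 1059992, plus strand) had 107, 85.1 and 108 CPM in BY47419, 93.8, 79.8 and 114 in C0, 29.2, 34.4 and 32.2 in C3-06, 25.6, 24.2 and 28.0 in C5-63, and 24.9, 27.2 and 24.9 in C7-143. All 9 evolved libraries lay below all 6 others, while those of BY47419 and C0 overlapped. FIT2 stood 3.73-fold lower in C7-143 than in C0, at a log2 change of -1.90 ± 0.12 (adjusted p = 3.39e-10, edgeR).

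FIT3 (YOR383C, chromosome XV, 1060441 to 1061055, minus strand), which lies next to FIT2 and is read towards it, had 347, 302 and 313 CPM in BY47419, 375, 357 and 338 in C0, 193, 192 and 180.3 in C3-06, 122, 113 and 123 in C5-63, and 118, 105 and 111 in C7-143. C3-06 was intermediate, and the libraries of C5-63 and C7-143 overlapped. The log2 fold change in C7-143 against C0 was -1.68 ± 0.07 (adjusted p = 1.68e-12, edgeR). Coding sequences of the family are related, with 80.7% identity over 615 aligned bases of FIT1 and FIT3, 75.8% over 458 bases of FIT1 and FIT2 and 69.2% over 435 bases of FIT2 and FIT3. No stretch of 50 bases of any of the 10 genes occurs elsewhere in the R64 genome, though 183 of the 1538 such stretches in FIT1 recur within FIT1 itself, a gene of internal repeats. On the length-corrected scale of FPKM (reads per kilobase of gene and per library size) FIT3 was the most abundant of the 10 in every strain, at 185.5 ± 6.96 FPKM in C7-143 against 541 ± 16.9 FPKM in C0 (SD, n = 3 each). FIT1 was among the least abundant, at 10.1 ± 0.538 FPKM in C7-143 against 4.12 ± 0.407 FPKM in C0. Within 1 library, where no scaling enters, the FPKM of FIT3 was 17.8 to 18.8 times that of FIT1 in C7-143, against 116 to 147 times in C0.

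**Figure D2:**
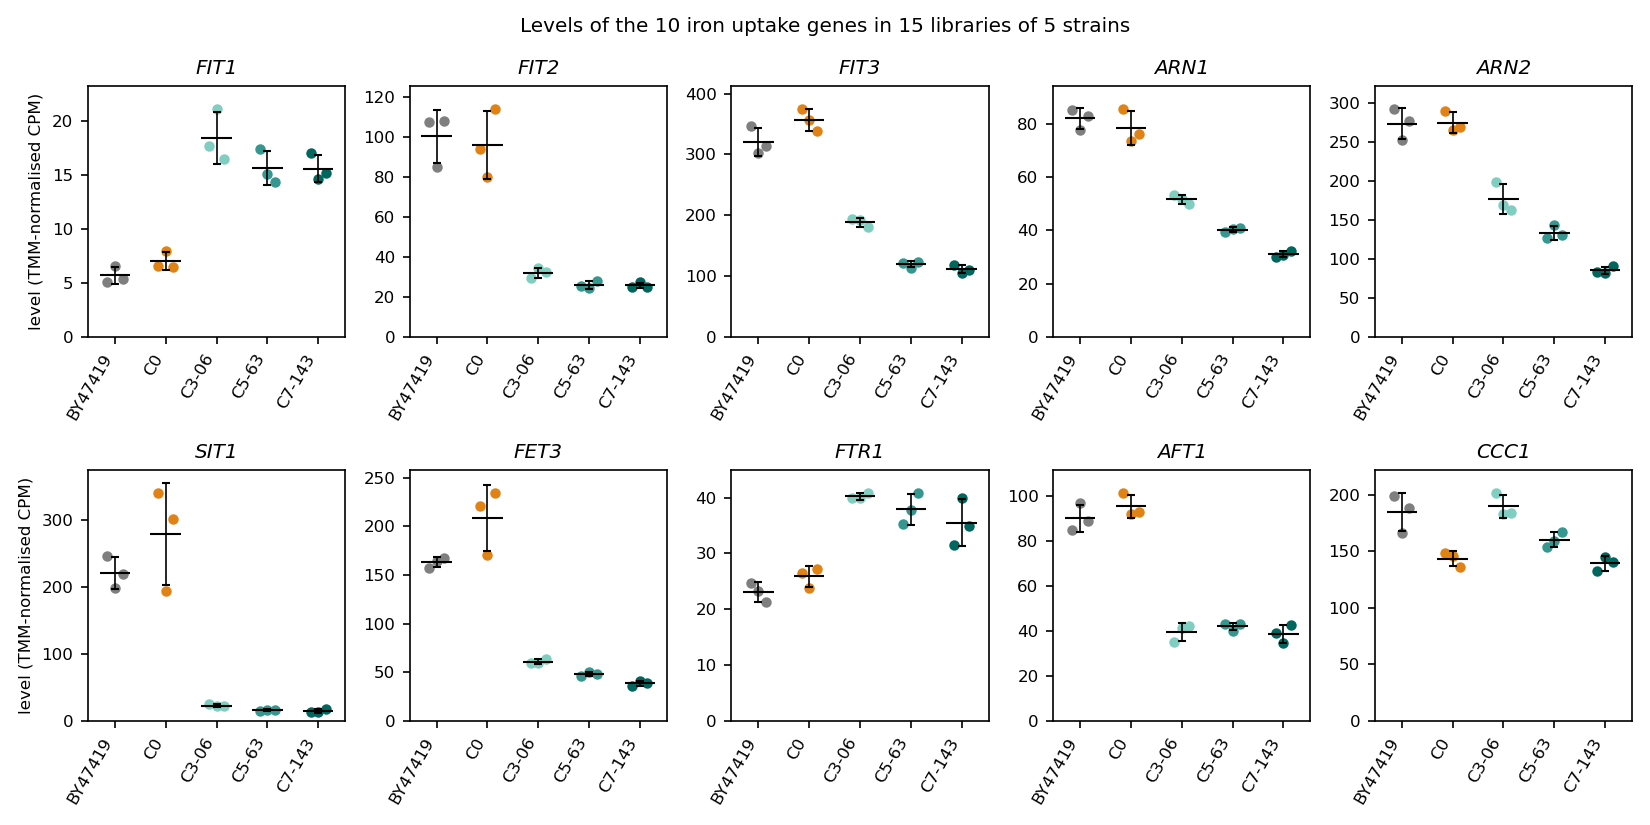
Levels of the 10 iron uptake genes in TMM-normalised CPM (linear axes from 0), with a point per library, the mean as a line and the SD as a bar (n = 3 per strain), in the order of the strains in the experiment. FIT1 and FTR1 sit higher in every evolved library than in any library of BY47419 and C0, CCC1 shows no such step, and the other 7 genes sit lower.

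The siderophore transporter genes among the 10 all fell in the evolved strains, SIT1 by far the most. ENB1, the enterobactin transporter gene, is not among the 10 and did not fall in each evolved strain. Against C0 it was at -0.28 ± 0.07 in C3-06 (adjusted p = 0.00232) and at -0.0020 ± 0.07 in C5-63 (adjusted p = 0.981, both edgeR). SIT1 takes up ferrioxamine B, ARN1 ferrirubin, ferrirhodin and related chelates, and ARN2 triacetylfusarinine C. SIT1 (YEL065W, chromosome V, 27657 to 29543, plus strand) had 246, 199 and 220.2 CPM in BY47419, 341, 194 and 303 in C0, 24.7, 21.5 and 22.3 in C3-06, 14.9, 16.3 and 16.8 in C5-63, and 13.1, 13.7 and 17.7 in C7-143. The highest evolved library was at 24.7 CPM, whereas the lowest library of the other strains, C0 replicate 2, was at 194 CPM. SIT1 stood 18.8-fold lower in C7-143 than in C0, at a log2 change of -4.23 ± 0.18 (adjusted p = 3.19e-12, edgeR), the largest change among the 10 genes. Among all genes of the table its mean FPKM stood at percentile 9.03 in C7-143, against percentile 79.45 in C0.

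ARN2 (YHL047C, chromosome VIII, 8351 to 10213, minus strand) had 292, 252 and 276 CPM in BY47419, 289.8, 265 and 268 in C0, 198, 169 and 162 in C3-06, 127, 143 and 129.9 in C5-63, and 83.6, 81.1 and 90.4 in C7-143. Its level was lower in C3-06 than in C0, lower again in C5-63 and lowest in C7-143, with no overlap between C0, C3-06, C5-63 and C7-143. The log2 fold changes were -0.64 ± 0.08 in C3-06 against C0 (adjusted p = 2.87e-06), -0.41 ± 0.08 in C5-63 against C3-06 (adjusted p = 0.00141) and -0.65 ± 0.08 in C7-143 against C5-63 (adjusted p = 2.11e-05, all edgeR). ARN1 (YHL040C, chromosome VIII, 19088 to 20971, minus strand) followed the same order, with 30.0 to 32.2 CPM in C7-143, 39.3 to 40.8 CPM in C5-63 and 49.9 to 53.1 CPM in C3-06, against 73.4 to 85.6 CPM in C0 and 77.8 to 85.3 CPM in BY47419. It fell in all of these steps (adjusted p = 4.50e-07, 0.000756 and 0.000385, edgeR). The coding sequences of ARN1, ARN2 and SIT1 share 57% to 62.3% of aligned bases. In FPKM within a library, SIT1 stood at 0.436 to 0.55 times ARN1 in C7-143, against 2.64 to 3.98 times in C0. With 3 libraries against 3, no exact permutation test of such a ratio can go below p = 0.10.

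The partner genes of the reductive route moved apart: FET3 fell and FTR1 rose. FET3 (YMR058W, chromosome XIII, 388822 to 390732, plus strand) had 158, 165 and 167 CPM in BY47419, 221, 171 and 234 in C0, 59.4, 59.3 and 63.9 in C3-06, 45.9, 50.1 and 47.7 in C5-63, and 35.8, 40.4 and 39.0 in C7-143. All evolved libraries lay below those of BY47419 and C0, and C7-143 was the lowest strain. The log2 fold change in C7-143 against C0 was -2.44 ± 0.10, a 5.43-fold lower level (adjusted p = 1.04e-12, edgeR). FTR1 (YER145C, chromosome V, 460526 to 461740, minus strand) had 24.8, 23.2 and 21.3 CPM in BY47419, 26.5, 23.8 and 27.3 in C0, 39.9, 39.9 and 40.8 in C3-06, 35.2, 37.7 and 40.7 in C5-63, and 31.6, 39.9 and 34.9 in C7-143. Its evolved libraries overlapped among themselves and all lay above BY47419 and C0. FTR1 was 1.37-fold higher in C7-143 than in C0, at a log2 change of 0.46 ± 0.10 (adjusted p = 0.000306, edgeR). The rise was 0.64 ± 0.09 in C3-06 (adjusted p = 1.21e-05) and 0.55 ± 0.09 in C5-63 (adjusted p = 4.84e-05, both edgeR against C0).

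Within single libraries the FPKM of FET3 was 4.05 to 4.99 times that of FTR1 in BY47419 and 4.56 to 5.47 times in C0. In C3-06 the ratio was 0.945 to 0.994, in C5-63 0.745 to 0.845 and in C7-143 0.644 to 0.72. FET3 thus had more reads per kilobase than FTR1 in all 6 libraries of BY47419 and C0 and fewer in all 9 evolved ones. These ratios do not depend on how the libraries were scaled.

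**Figure D3:**
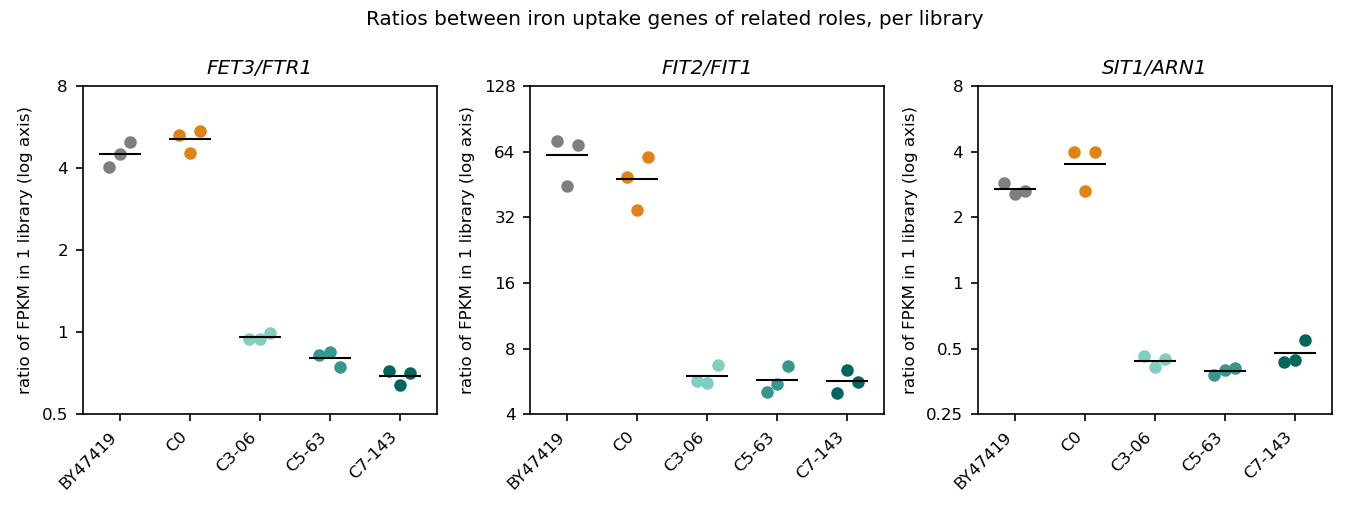
Ratio of FPKM within each library (log axes) for FET3 over FTR1, FIT2 over FIT1 and SIT1 over ARN1, with a point per library and the mean as a line (n = 3 per strain). In each panel all 9 evolved libraries lie below all 6 libraries of BY47419 and C0, and for FET3 over FTR1 the evolved libraries lie below 1.

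AFT1 itself fell in each evolved strain against C0 and passed the threshold neither in C5-63 against C3-06 nor in C7-143 against C5-63. AFT1 (YGL071W, chromosome VII, 372012 to 374084, plus strand), the activator of the regulon, had 84.8, 96.6 and 88.6 CPM in BY47419, 101, 92.1 and 92.6 in C0, 35.0, 41.1 and 42.1 in C3-06, 42.9, 40.0 and 42.9 in C5-63, and 39.0, 34.4 and 42.5 in C7-143. The evolved libraries shared 1 range, from 34.4 to 42.9 CPM, below the range of 84.8 to 101 CPM of the other 6. The log2 fold change was -1.27 ± 0.09 in C3-06 against C0 (adjusted p = 1.59e-09) and -1.30 ± 0.09 in C7-143 against C0 (adjusted p = 5.47e-10, both edgeR). Between C5-63 and C3-06 it was 0.09 ± 0.09 (adjusted p = 0.447) and between C7-143 and C5-63 -0.12 ± 0.09 (adjusted p = 0.288, both edgeR). These counts are of transcripts and say nothing of how much Aft1 protein was active.

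CCC1, the vacuolar iron and manganese importer, took a course unlike the rest, with narrow differences. CCC1 (YLR220W, chromosome XII, 576825 to 577793, plus strand) had 199, 166 and 188 CPM in BY47419, 149, 146 and 136 in C0, 202, 183 and 184 in C3-06, 154, 159.5 and 167 in C5-63, and 132, 145 and 141 in C7-143. C3-06 lay above C0 without overlap, and C7-143 overlapped C0. CCC1 fell in C0 against BY47419, at a log2 change of -0.36 ± 0.07 (adjusted p = 0.00239), and rose in C3-06 against C0, at 0.40 ± 0.07 (adjusted p = 8.54e-05, both edgeR). It then fell in C5-63 against C3-06 at -0.25 ± 0.07 (adjusted p = 0.0132) and in C7-143 against C5-63 at -0.20 ± 0.07 (adjusted p = 0.0327, both edgeR). These last calls rest on few libraries: that for C5-63 was lost without C3-06 replicate 1 or C5-63 replicate 1 (adjusted p = 0.0627 and 0.0621) and under scaling by library totals alone (-0.14, adjusted p = 0.121), and that for C7-143 without C5-63 replicate 2 or 3 or C7-143 replicate 1 or 3 (0.0575 to 0.0961, edgeR). In C7-143 against C0 the value was -0.04 ± 0.07 (adjusted p = 0.608, edgeR), and it turned to 0.10 under scaling by library totals alone (adjusted p = 0.185, and 0.185 to 0.942 over the 23 alternative settings tried, edgeR, DESeq2 or limma).

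C0 was compared with BY47419 to ask what differs in the β-carotene strain before evolution. Of the 10 genes 1 rose, FET3, and 1 fell, CCC1, that is 2 of 10 called, where 30.3% of the 5814 genes tested were called, 12.2% higher and 18% lower (712 and 1049 genes, or 1279 and 318 if scaled by library totals alone). FET3 stood at 209 ± 33.6 CPM in C0 and 163 ± 4.96 CPM in BY47419 (SD, n = 3 each), a log2 change of 0.35 ± 0.09 (adjusted p = 0.00995, edgeR). FET3 and CCC1 were also the 2 genes whose libraries did not overlap, against 40.9% of all genes. The FET3 call rests on C0 replicate 3, without which the value was 0.26 (adjusted p = 0.0558, edgeR). Over all alternatives its adjusted p was 0.000582 to 0.0558 (edgeR, DESeq2 or limma). C0 replicate 2 was the lowest C0 library for SIT1, FET3, FIT2, ARN1, ARN2, FTR1 and AFT1. It had SIT1 at 194 CPM, against 341 and 303 in the other C0 libraries. Without that library SIT1 passed as higher in C0, at 0.54 (adjusted p = 0.00602), whereas with it the value was 0.33 ± 0.16 (adjusted p = 0.118, both edgeR). Over all alternatives the adjusted p of SIT1 was 0.00602 to 0.452 (edgeR, DESeq2 or limma). Stress genes held 9.46% of the reads of C0 replicate 2, against 8.92% and 8.59% in the other two C0 libraries. The median log2 fold change of the 10 genes was 0.12, against -0.02 over all genes tested. The other 7 genes, FIT1, FIT2, FIT3, ARN1, ARN2, FTR1 and AFT1, lay between -0.07 and 0.29 on the log2 scale and did not pass.

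Each evolved strain was set against C0 to ask what differs from the starting β-carotene strain; these comparisons share the C0 libraries. In C3-06 3 of the 10 rose (FIT1, FTR1 and CCC1) and 7 fell, 10 called in all, where 80.5% of genes were called, 41.1% higher and 39.4% lower (2387 and 2292 genes, or 2820 and 1702 with library totals alone). The groups did not overlap for any of the 10, nor for 81.4% of all genes. In C5-63 2 rose (FIT1 and FTR1) and 7 fell, where 83.1% of genes were called, 41.4% higher and 41.8% lower (2405 and 2428 genes, or 3035 and 1684 with library totals alone). Here too all 10 did not overlap with C0, against 85.2% of all genes. All these shares are of the 5814 genes tested. In C7-143 the same 2 genes rose and the same 7 fell, where 86% of genes were called, 42.7% higher and 43.3% lower. The groups did not overlap for 9 of the 10, all but CCC1, against 87.3% of all genes. The number of called genes among the 10 was therefore close to that of genes at large. The 10 genes had a median log2 fold change of -0.78 in C3-06, while that in C5-63 was -1.11 and that in C7-143 -1.51, against 0.02, -0.0046 and -0.02 over all genes. At least 2-fold lower were 4 genes in C3-06, 6 in C5-63 and 7 in C7-143. The share of all genes at that cut was not counted, so these numbers are only a description. CCC1 missed the threshold in C5-63 narrowly, at 0.16 ± 0.07 (adjusted p = 0.0534, edgeR), and passed it without BY47419 replicate 1 or 2, C3-06 replicate 1, C5-63 replicate 1 or C7-143 replicate 1 (adjusted p = 0.0261 to 0.0498, edgeR). It also passed with C5-63 and C0 fitted alone, at 0.17 (adjusted p = 0.0219), and under scaling by library totals alone, at 0.47 (adjusted p = 1.15e-05, both edgeR).

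**Figure D4:**
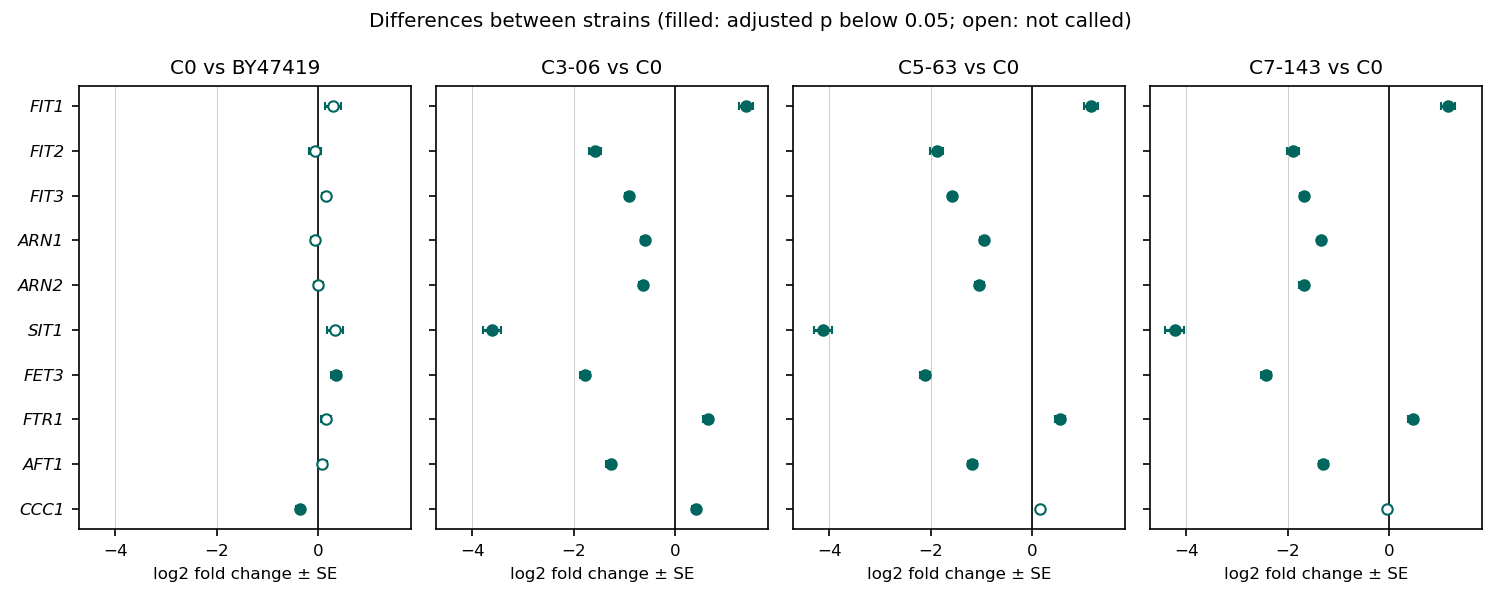
Log2 fold changes of the 10 genes, with the SE as a bar, in C0 against BY47419 and in C3-06, C5-63 and C7-143 against C0; filled points passed an adjusted p below 0.05 (edgeR). Values spread from -4.23 for SIT1 to 1.15 for FIT1 in C7-143, while all 10 lie between -0.36 and 0.35 in C0 against BY47419.

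The genes differed in how much of the difference between C7-143 and C0 was present in C3-06. For AFT1 97.7% of it on the log2 scale was present there, for SIT1 85.3%, for FIT2 83.4% and for FET3 72.8%. For FIT3 the share was 54.6%, for ARN1 44.9% and for ARN2 37.7%. FIT1 and FTR1 stood higher in C3-06 than in C7-143, at 121% and 140% of the later difference, but neither gene passed the threshold in C5-63 against C3-06 or in C7-143 against C5-63 (adjusted p = 0.130 to 0.990, edgeR). In C5-63 against C3-06 6 of the 10 fell (FIT3, ARN1, ARN2, SIT1, FET3 and CCC1) and 0 rose, where 40.8% of genes were called, 19.8% higher and 21% lower (1151 higher and 1221 lower genes, or 1546 and 761 with library totals alone). Together with FIT2 these made 7 genes without overlap, against 57.1% of all genes. SIT1 passed this step at -0.51 ± 0.18 (adjusted p = 0.0300, edgeR) and lost the call without C3-06 replicate 1 or 3 or any C5-63 replicate (0.0546 to 0.108, edgeR), with limma-voom (adjusted p = 0.0796) and under scaling by library totals alone (-0.40, adjusted p = 0.0787, edgeR). FET3 also lost its call in this comparison under scaling by library totals alone (-0.24, adjusted p = 0.108, edgeR). FIT2 was at -0.30 ± 0.12 and missed the threshold (adjusted p = 0.0641), but passed without BY47419 replicate 2 or C0 replicate 2 or 3 (0.0349 to 0.0391), with C5-63 and C3-06 fitted alone (0.0328) and with a replicate block (0.0474, all edgeR). In C7-143 against C5-63 4 fell (ARN1, ARN2, FET3 and CCC1) and 0 rose, where 48.8% of genes were called, 25% higher and 23.9% lower (1451 higher and 1387 lower genes, or 714 and 2314 with library totals alone). These 4 were also those without overlap, against 62% of all genes. FET3 lost this call without C5-63 replicate 2 (adjusted p = 0.0507, edgeR), and CCC1 lost it too, which left ARN1 and ARN2. FIT3 passed as lower here under scaling by library totals alone, at -0.27 (adjusted p = 0.00385), against -0.10 as reported (adjusted p = 0.225, both edgeR).

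C7-143 was also set against BY47419, the net of both steps. All 10 genes were called, 2 higher and 8 lower, where 87.3% of genes were called, 43.6% in each direction (2537 higher and 2536 lower genes, or 2976 and 2010 with library totals alone), and none of the 10 overlapped, against 87.4% of all genes without overlap. SIT1 had 14.8 ± 2.52 CPM in C7-143 and 222 ± 23.8 CPM in BY47419 (SD, n = 3 each), and FTR1 had 35.5 ± 4.20 CPM in C7-143 and 23.1 ± 1.74 CPM in BY47419. CCC1 fell by 0.40 on the log2 scale (adjusted p = 7.00e-05, edgeR), yet by 0.11 under scaling by library totals alone (adjusted p = 0.161, edgeR). Over all alternatives the adjusted p was 9.70e-07 to 0.161 (edgeR, DESeq2 or limma). Together the 10 genes held 0.0522% to 0.0576% of the reads in C7-143, against 0.129% to 0.155% in C0 and 0.122% to 0.125% in BY47419.

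Other genes of iron handling were set beside the 10 in C7-143 against C0, where 86% of all genes tested were called, 42.7% higher and 43.3% lower, so that a high number of calls in a list is no result about it. Of 7 other genes listed under uptake at the cell surface all 7 were lower than in C0 (median log2 fold change -0.63). A role at the surface is not established for 1 of them, FRE5. Of 8 genes listed under intracellular iron transport and recycling 7 were lower and 1 was higher (median -0.90, against -0.02 over all genes). The 1 that was higher, COT1, is a gene of vacuolar zinc and cobalt transport. FRE5, a gene of the ferric reductase family that lies next to FIT3, fell by 1.89 ± 0.10, and the surface reductase gene FRE1 by 1.38 ± 0.16. FRE3, also of that family, fell by 0.88 ± 0.10 and ENB1, the enterobactin transporter gene, by 0.53 ± 0.07. MRS4, a mitochondrial iron carrier gene, fell by 1.78 ± 0.09. FET5 and FTH1, the vacuolar relatives of FET3 and FTR1, fell by 1.14 ± 0.06 and 0.97 ± 0.06, and the vacuolar reductase gene FRE6 by 0.84 ± 0.06 (adjusted p = 1.05e-11 to 4.65e-06 for these 8 genes, edgeR). FTH1 was thus lower, at 115 ± 7.73 CPM in C7-143 and 224 ± 6.38 CPM in C0, whereas FTR1 was higher. Scaling by library totals alone moves the median gene by 0.14 in this comparison, and the smallest changes called in these further lists were close to that, 0.20 for COT1 and -0.16 for NFS1, the cysteine desulfurase gene, both singled out after their values were seen.

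Copper reaches Fet3, a multicopper oxidase, through the copper transporters, the chaperone Atx1 and the pump Ccc2. Of 6 genes of copper supply 4 fell and 2 rose in C7-143 against C0, where 43.3% of all genes fell and 42.7% rose (median -1.45, against -0.02 over all genes). CTR1, the high-affinity copper transporter gene, had 55.2 ± 3.38 CPM in C7-143 and 894 ± 58.5 CPM in C0 (SD, n = 3 each), a log2 change of -4.02 ± 0.23 (adjusted p = 1.10e-10, edgeR). The reductase gene FRE7 fell by 2.10 ± 0.20, CCC2 by 1.60 ± 0.09 and MAC1, the activator of copper uptake genes, by 1.31 ± 0.07 (adjusted p = 4.63e-08, 3.87e-11 and 2.98e-11, edgeR). The 2 that rose were CTR3, another copper transporter gene, by 0.93 ± 0.17, and ATX1, by 0.43 ± 0.15, whose libraries overlapped with C0 (adjusted p = 0.000106 and 0.0162, edgeR); they were chosen for mention after their values were seen.

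Of 8 genes of iron sensing and iron-linked mRNA decay 5 fell and 3 rose in C7-143 against C0, where 43.3% of all genes were lower and 42.7% higher. YAP5, the activator of CCC1 under high iron, fell by 1.73 ± 0.09, AFT2 by 1.20 ± 0.07 and FRA1, part of the complex that restrains Aft1, by 1.57 ± 0.09. GRX3, the glutaredoxin gene of the same complex, rose by 1.15 ± 0.06 and had 231 ± 14.8 CPM in C7-143 and 104 ± 1.32 CPM in C0 (adjusted p = 1.25e-11 to 9.63e-11 for these 4, edgeR; SD, n = 3 each). Also higher in C7-143 than in C0 were FRA2, by 0.46 ± 0.09, and GRX4, by 0.37 ± 0.08 (adjusted p = 0.000125 and 0.000473, edgeR). Both were chosen for mention after their values were seen. In C3-06 against C0 GRX3 rose by 0.34 ± 0.06 (adjusted p = 0.000144, edgeR).

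Of 14 genes that build iron-sulfur clusters 9 fell, 2 rose and 3 did not pass in C7-143 against C0, where 86% of all genes were called and 43.3% fell. The scaffold gene ISU1 had 69.8 ± 11.2 CPM in C7-143 and 726 ± 152 CPM in C0, a log2 change of -3.38 ± 0.22. ARH1, the ferredoxin reductase gene, fell by 1.44 ± 0.07, the cochaperone gene JAC1 by 1.12 ± 0.07 and ISD11, the partner of the cysteine desulfurase, by 0.95 ± 0.06 (adjusted p = 1.15e-11 to 4.21e-10 for these 4, edgeR). The 2 that rose were ATM1, by 1.15 ± 0.08, and YAH1, by 0.26 ± 0.10 (adjusted p = 4.96e-10 and 0.0273, edgeR). Both were chosen for mention after their values were seen. Of 11 genes of iron-sulfur enzymes 5 fell and 4 rose, beside 43.3% lower and 42.7% higher among all genes. The respiratory and citrate cycle genes RIP1, ACO1 and SDH2 fell by 2.73 ± 0.10, 2.61 ± 0.11 and 2.31 ± 0.10, and ILV3, the dihydroxyacid dehydratase gene of branched-chain amino acid synthesis, rose by 2.39 ± 0.11 (adjusted p = 4.80e-13 to 2.89e-12 for these 4, edgeR). The others that rose were RLI1, by 2.36 ± 0.13, BIO2, by 1.43 ± 0.13, and LEU1, by 1.17 ± 0.07 (adjusted p = 5.64e-11, 2.33e-08 and 8.99e-11, edgeR). They were chosen for mention after their values were seen. ISU1 has a paralog, ISU2, which did not pass (adjusted p = 0.0616, edgeR). Whether reads were shared between the copies was not examined.

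**Figure D5:**
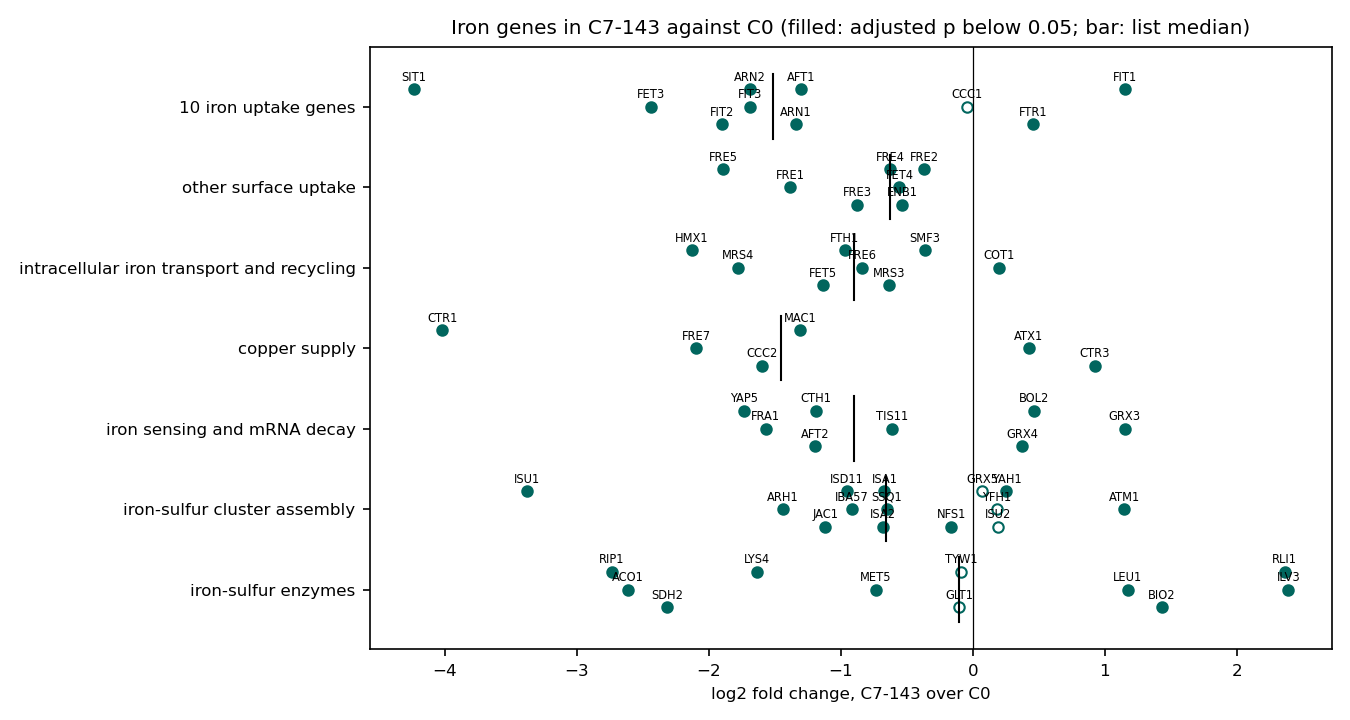
Log2 fold changes in C7-143 over C0 for the 10 iron uptake genes and 6 further lists of iron and copper genes, with a point per gene (filled where adjusted p is below 0.05, edgeR) and a bar at each list's median. The medians run from -1.51 for the 10 genes to -0.10 for the iron-sulfur enzymes, whose members lie on both sides of 0.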

How the data were processed

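Total RNA of 15 yeast libraries was sequenced on an Illumina platform, and HISAT2 was the aligner, per the submitters' processing notes. What counted the reads, with which strand setting and on which build, is not given in the sources used here. The authors deposited 1 table of raw read counts and FPKM per gene, used as deposited. FPKM corrects for gene length and library size and is so named per the file headers. Chromosome names are those of R64, and 5972 of 5980 genes have R64's start and end. Gene tests used edgeR 4.0.16 in R 4.3.3: filterByExpr (minimum count 10, total 15) kept 5814 genes, TMM factors scaled the libraries, and 1 robust quasi-likelihood model of all 15 libraries, with strain as factor, gave 7 two-sided contrasts. Calls are at a Benjamini-Hochberg adjusted p below 0.05 over all genes tested. The SE is the log2 fold change divided by the square root of F. The script was tested on simulated data. Deviations from strain means correlated above a limit of 0.1 in every same-numbered pair in C0 against BY47419 alone, at 0.116 to 0.321. Differently numbered pairs there ran from -0.268 to 0.132. These ranges overlap, so the values do not settle whether replicate numbers pair the libraries. Alternatives were DESeq2 1.42.0, limma-voom (limma 3.58.1), RLE scaling, library totals alone, no filter, a filter of 5 CPM in 3 libraries, the compared strains alone, a replicate block and leaving out each library. Biopython 1.88 aligned sequences. The genes and lists were chosen with earlier results of these data known. Named are the 10 genes, up to 4 genes of each other list with the lowest adjusted p in C7-143 against C0, and any gene singled out as chosen later. FRA2 was matched as BOL2.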

Additional observations from a re-analysis of the deposited data

How the results depend on the processing

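Of 161 recounts of called members (7 comparisons under 23 alternatives), 157 stayed within 1.5 times the reported count. Library totals alone gave 4 called members in C0 against BY47419, against 2 reported, with FIT3 at 0.31 and SIT1 at 0.49 passing as higher, and 3 in C5-63 against C3-06, against 6. Leaving out 1 library gave 1 to 3 members in C0 against BY47419, 10 in C3-06 against C0, 9 to 10 in C5-63 against C0, 9 in C7-143 against C0, 4 to 7 in C5-63 against C3-06, 2 to 4 in C7-143 against C5-63 and 10 in C7-143 against BY47419. The replicate block ended no call; with it FIT2 passed as lower in C5-63 against C3-06 (-0.31, adjusted p = 0.0474, edgeR), giving 7 called members there, against 6. Same-numbered pairs did not pass the limit in that comparison, at -0.43 to 0.331.

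Signs turned only for genes that were not called. In C0 against BY47419, library totals alone gave ARN1 0.0874 and FIT2 0.10, while without 1 library FIT2 was -0.206 to 0.0548 and ARN2 -0.051 to 0.0561. In C7-143 against C0 library totals alone gave CCC1 0.10, and in C5-63 against C3-06 they gave FTR1 0.0197. In C7-143 against C5-63, FIT1 was 0.0029 with DESeq2, 0.0029 with RLE scaling and 0.0015 with limma-voom, and -0.0842 to 0.0814 without 1 library, where FIT2 was -0.0617 to 0.0321.

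With library totals alone the median gene moved by 0.15, 0.20, 0.31 and 0.14 in C0 against BY47419 and in C3-06, C5-63 and C7-143 against C0, by 0.10 in C5-63 against C3-06, by -0.17 in C7-143 against C5-63 and by 0.29 in C7-143 against BY47419.
The number of genes called over the whole table in C0 against BY47419, 712 higher and 1049 lower, was 556 and 566 with those strains fitted alone, and 377 to 392 higher and 568 to 635 lower when C0 replicate 2, BY47419 replicate 1 or BY47419 replicate 3 was left out. It was larger, at 976 higher and 1247 lower, without BY47419 replicate 2, and at 790 and 1130 with DESeq2. At this depth FIT1, at 5.12 to 21.1 CPM over the 15 libraries, had the fewest reads of the 10 genes in BY47419, C0 and C3-06, although the SE of SIT1, whose C0 libraries spread more, was larger (0.18 against 0.14 in C7-143 against C0). The causes were not tested.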

Other observations

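Beyond the 10 genes, TGCACCC lay before 126 other genes that were tested. In C7-143 against C0 71 of them (56.3%) were lower and 39 higher, with a median log2 fold change of -0.31. Among all genes tested 43.3% were lower and 42.7% higher, and the median was -0.02. In C3-06 against C0 58 (46%) were lower and 40 higher, with a median of -0.12. Among all genes 39.4% were lower and 41.1% higher, and the median was 0.02. No test was run on these shares, and both comparisons share the C0 libraries.

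CCC1 had the course least like that of other genes. Over the 15 libraries, 2 genes had a Pearson r above 0.9 with CCC1 in log2 CPM, YLR326W (0.927) and FUB1 (0.909), against 340 to 1395 genes for each of the other 9. FIT1 was closest to DFG5 (0.989), a gene of cell wall assembly, YPS1 (0.985), a gene of a cell surface protease, and RBD2 (0.984). These were among 1029 genes above 0.9 with FIT1. FTR1 was closest to GNA1 (0.965), among 340 such genes. These values are a description: the libraries fall into BY47419 and C0 on one side and the evolved strains on the other, so genes that differ between those sides have a high r with each other whatever else they share.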
